A study of Mus musculus with 6 samples.

Results

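The genes described here encode steps of glycolysis in bone marrow, from the entry of glucose into the cell to the formation of pyruvate, and they include the forms used by red cells and by other blood cells. They are *Slc2a1*, *Hk1*, *Hk2*, *Hk3*, *Pfkl*, *Aldoa*, *Bpgm*, *Pgam1*, *Pklr* and *Pkm*, a list of names whose rule uses no measured value. All 10 symbols were found among the 39179 mouse genes that the count files list, and all 10 had enough counts to be tested.

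Stranded mRNA libraries were made from the bone marrow of 6 littermates. The 3 *MxCDX2* mice (*RsCDX2::Mx1Cre*) carried human *CDX2* in the *Rosa26* locus, kept silent by a stop cassette between loxP sites, together with a *Cre* transgene under the interferon-inducible *Mx1* promoter. This promoter is not restricted to blood stem cells, and the RNA came from whole marrow without a sort. Each control genotype had a single mouse, *RsCDX2* for control 1, *Mx1Cre* for control 2 and wild type for control 3. All 6 mice, controls included, received poly(I:C) into the peritoneum 3 times at 10 µg/g when aged 3 months, by the labels, and the marrow was taken 6 weeks later. The question was what ectopic expression of CDX2, a homeobox factor of the intestine, changes in the marrow.

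Glycolysis splits glucose into pyruvate and yields ATP. Mature red cells have no mitochondria and depend on it, and they use particular forms of some enzymes, such as the pyruvate kinase from *Pklr*. They also divert an intermediate through bisphosphoglycerate mutase, the product of *Bpgm*, to make 2,3-bisphosphoglycerate, which lowers the affinity of hemoglobin for oxygen.

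Between 38646101 and 49899650 reads per mouse were counted on genes. The mouse gene *Cdx2* had 4, 0 and 0 counts in controls 1 to 3 and 152, 155 and 183 in the *MxCDX2* mice (adjusted p = 0.00537). This and all adjusted p-values below came from the quasi-likelihood test of edgeR and were adjusted by the Benjamini-Hochberg method. Reads were aligned to the mouse genome, so reads of the human transgene and of mouse *Cdx2* cannot be told apart in these counts. The level of the transgene is therefore not known from them. The wild-type control stood apart from the other controls on the second principal component (15.9% of the variance). Genes that mark erythroid cells were lower in *MxCDX2* marrow: 18 of the 18 tested passed both thresholds given below, and their summed level was 40420 to 49388 CPM (counts scaled to a library of 1e6 counts) in controls and 1417 to 5214 in *MxCDX2* mice, with none at 0. Of the erythroid markers, the band 3 gene *Slc4a1* had a log2 fold change of -3.40 and the erythropoietin receptor gene *Epor* of -3.60, and without *MxCDX2* mouse 1 these were -4.29 and -4.49. Without *MxCDX2* mouse 3, 11 of the 18 markers passed, and *Slc4a1* did not (adjusted p = 0.0661). Of the 8 monocyte and macrophage markers, 5 rose (7 without the wild-type control) and 0 fell, with a sum of 1133 to 1403 CPM in controls and 6423 to 8085 in *MxCDX2* mice and none at 0. *Csf1r*, the receptor gene for the growth factor of macrophages, had a log2 fold change of 2.08, the chemokine receptor gene *Ccr2* of 2.75 and *Ly6c2* of 2.06. Of the 10 neutrophil markers, 8 fell (4 without *MxCDX2* mouse 3 and 10 without the wild-type control), with a sum of 43957 to 62735 CPM in controls and 18411 to 26432 in *MxCDX2* mice and none at 0. The granule gene *Ltf* had a log2 fold change of -1.81 (adjusted p = 0.0589 without *MxCDX2* mouse 3), *Camp* of -1.18 (adjusted p = 0.0572) and *Ngp* of -1.06 (adjusted p = 0.0762). Of 4 markers of promyelocytes, an earlier stage of the neutrophil line, 1 rose and 0 fell. That call held in 2 of the 6 fits with a mouse left out. The 4 markers summed to 693 to 3416 CPM in controls, lowest in the wild-type control. In *MxCDX2* mice the sum was 3837 to 4185 CPM, with none at 0. In such bulk samples, fewer cells of a type and less RNA per cell cannot be told apart.

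In *MxCDX2* marrow, *Bpgm* and *Pklr* fell to a small part of their control level and *Pgam1*, which encodes the mutase of the main glycolytic route, rose more than 2-fold. A gene was called changed when its absolute log2 fold change was above 1 and its adjusted p below 0.05, the thresholds of the study's methods. By this rule 3 of the 10 genes were called, 1 higher and 2 lower, against 13.6% of all 15980 genes tested (4.59% higher and 9.03% lower). At an adjusted p below 0.05 and any fold, 6 of the 10 passed, 3 in each direction, against 21.7% of all genes (9.91% higher and 11.8% lower). This count was 3 without *MxCDX2* mouse 2 or without *MxCDX2* mouse 3, 4 without control 1, and 5 or 6 without another mouse. The values of the 2 groups of mice did not overlap for 9 of the 10 genes, 6 higher and 3 lower, against 42.1% of all genes (21.4% higher and 20.7% lower). The median log2 fold change of the 10 genes was 0.26, and that of all genes tested was 0.00. With DESeq2 the count was again 1 higher and 2 lower.

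**Figure D1:**
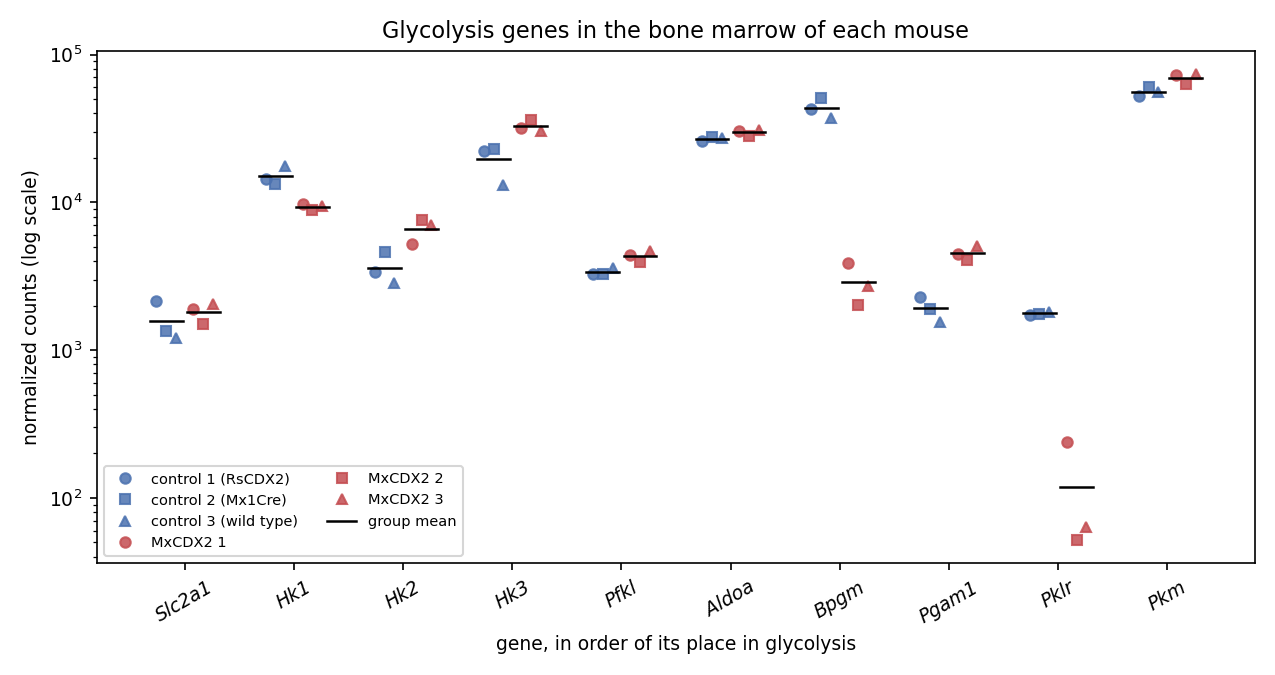
Normalized counts of the 10 glycolysis genes (log axis) in each of the 3 control mice (blue) and 3 *MxCDX2* mice (red), in pathway order, with each group's mean as a black line. *Bpgm* and *Pklr* lie far lower in all 3 *MxCDX2* mice, and *Pgam1*, *Hk2* and *Hk3* lie higher.

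The level of a gene was compared with that of another gene per kb of exon, as normalized counts divided by exon length. This length is that of all annotated exons of the gene, merged. In control marrow *Bpgm* had the highest level of the 10 genes, 12145 ± 1862 (SD, n = 3) normalized counts per kb, and it ranked 129 among 15816 genes with a known length. *Pkm* came next with 11211 ± 738 (SD, n = 3) per kb, and the mice's values for the 2 genes overlapped. *Aldoa*, *Hk3*, *Hk1* and *Pgam1* followed in that order, each apart from its neighbours. At the low end *Hk2* overlapped with *Pklr* and *Pfkl* with *Slc2a1*, the lowest of the 10 with 449 ± 147 (SD, n = 3) per kb. In *MxCDX2* marrow *Pkm* had the highest level, 13966 ± 1201 (SD, n = 3) per kb, and *Pklr* the lowest, 36.3 ± 32.1 (SD, n = 3). *Bpgm* stood seventh there with 800 ± 264 (SD, n = 3) per kb and rank 3162, and its values overlapped with those of *Hk1* above it and *Pfkl* below it. *Pgam1* went the other way, from rank 2694 in controls to rank 984 in *MxCDX2* mice.

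Glucose enters blood cells through facilitative transporters. *Slc2a1* (ENSMUSG00000028645, chr4:119108711-119137983, plus strand, GRCm38), which encodes the widespread transporter GLUT1, had 2161, 1351 and 1206 normalized counts in controls 1 to 3 and 1894, 1511 and 2059 in *MxCDX2* mice 1 to 3. Normalized counts are counts scaled to the mean effective library size of the 6 mice. The effective size is the library size multiplied by the TMM scaling factor of edgeR. The *RsCDX2* control had the highest value of all 6 mice and the groups overlapped. The log2 fold change was 0.21 (SE 0.25, adjusted p = 0.584). *Slc2a4*, which encodes the insulin-responsive transporter GLUT4 that adult mouse red cells are known to carry, had 1113, 1180 and 966 normalized counts in controls and 178, 53.9 and 67.9 in *MxCDX2* mice. All 3 *MxCDX2* values were far below the controls, and *MxCDX2* mouse 1 kept the most. Its log2 fold change was -3.44 (adjusted p = 0.00479), and -4.15 without that mouse. *Slc2a3*, which encodes the high-affinity transporter GLUT3, supplied most of the counts per kb of the 3 transporter genes in both groups, 78.9% ± 6.52 in controls and 72.8% ± 8.40 in *MxCDX2* mice (SD, n = 3). It had a log2 fold change of -0.91 (adjusted p = 0.0440), which was short of the fold threshold. Together, the counts per kb of the 3 transporter genes were 3685 ± 451 in controls and 2100 ± 396 in *MxCDX2* mice (SD, n = 3). The share and the sum hold for these 3 genes only and leave out *Slc2a6* of the same family. *Slc2a6* had 857 ± 142 normalized counts per kb in controls and 1573 ± 215 in *MxCDX2* mice (SD, n = 3). *Slc2a3* had 2924 ± 591 and 1552 ± 484 (SD, n = 3).

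Hexokinases phosphorylate glucose and so keep it in the cell. *Hk1* (ENSMUSG00000037012, chr10:62268855-62379908, minus strand), the form known from red cells and brain, had 14367, 13327 and 17626 normalized counts in controls and 9698, 8852 and 9406 in *MxCDX2* mice. The groups did not overlap, and the wild-type control was the highest. Its log2 fold change of -0.70 (SE 0.13, adjusted p = 0.0138) was below the fold threshold, and it was -0.55 without the wild-type control. The adjusted p was 0.0552 without *MxCDX2* mouse 2 and 0.0674 without *MxCDX2* mouse 3. *Hk2* (ENSMUSG00000000628, chr6:82725025-82774454, minus strand), the inducible form of muscle and of growing cells, had 3375, 4587 and 2824 normalized counts in controls and 5244, 7649 and 7035 in *MxCDX2* mice. All *MxCDX2* values were above all controls, but *MxCDX2* mouse 1 stood near the *Mx1Cre* control. The log2 fold change was 0.89 (SE 0.22, adjusted p = 0.0315), and it reached 1.03 without *MxCDX2* mouse 1 and 1.10 without the *Mx1Cre* control, past both thresholds in each case. *Hk3* (ENSMUSG00000025877, chr13:55005985-55021385, minus strand), the form of white blood cells, had 22379, 23072 and 13039 normalized counts in controls and 32063, 35847 and 30424 in *MxCDX2* mice. Here too the groups stood apart, with the wild-type control the lowest. The log2 fold change was 0.75 (SE 0.23, adjusted p = 0.0635), and 0.55 without the wild-type control (adjusted p = 0.0248).

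The makeup of the hexokinase transcripts was compared within each mouse, which needs no scaling between mice but uses the same counts. Of the counts per kb of the 3 hexokinase genes, *Hk1* held 20.2%, 18.2% and 34.0% in controls 1 to 3 and 10.6%, 8.61% and 10.5% in *MxCDX2* mice. Every *MxCDX2* share was below every control share, and the wild-type control stood far above the other controls. The mean share differed by -14.2 percentage points (exact permutation test, two-sided, p = 0.10, n = 3 per group). *Hk3* held 73.0%, 72.9% and 58.2% in controls and 81.2%, 80.8% and 78.4% in *MxCDX2* mice, a difference of 12.1 points (exact permutation test, two-sided, p = 0.10, n = 3 per group). Without the wild-type control both differences were smaller, at -9.31 and 7.17 points. The lowest p that the exact test of 3 mice against 3 can give is 0.10, and the 4 comparisons of makeup made in this way all gave it (Benjamini-Hochberg adjusted p = 0.10). The summed hexokinase level was 7668 ± 1382 normalized counts per kb in controls and 11107 ± 826 in *MxCDX2* mice (SD, n = 3). The fall of erythroid markers and of the listed neutrophil markers, and the rise of monocyte markers, given above moved with these shares. Their part in the shares was not tested.

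*Pfkl* (ENSMUSG00000020277, chr10:77986947-78010083, minus strand) encodes the liver form of phosphofructokinase, the committing step of the pathway. It had 3288, 3264 and 3570 normalized counts in controls and 4403, 3952 and 4696 in *MxCDX2* mice. The 3 *MxCDX2* values were all above the controls by a small margin, with a log2 fold change of 0.37 (SE 0.10, adjusted p = 0.0465). Its adjusted p was below 0.05 in 1 of the 6 fits with a mouse left out, that without the wild-type control (0.0240), and 0.0538 to 0.175 in the others. The other genes for this enzyme moved in opposite directions. The muscle form *Pfkm* had 1914, 1855 and 2355 normalized counts in controls and 899, 934 and 1005 in *MxCDX2* mice (log2 fold change -1.11, adjusted p = 0.00337). The platelet form *Pfkp* had 3574, 3025 and 3029 in controls and 8601, 7247 and 8084 in *MxCDX2* mice (log2 fold change 1.31, adjusted p = 0.00166). Neither gene's groups overlapped. Of the counts per kb of the 3 genes, *Pfkm* held 44.9% ± 2.75 in controls and 18.6% ± 1.33 in *MxCDX2* mice, and *Pfkp* 17.7% ± 2.30 and 38.9% ± 1.75 (SD, n = 3). *Pfkl* held 37.3% ± 1.05 and 42.6% ± 1.04 (SD, n = 3). The summed level was 1356 ± 100 and 1530 ± 104 normalized counts per kb (SD, n = 3). These shares and this sum depend on the exon lengths, 13401 bp for *Pfkp*, 6675 bp for *Pfkl* and 3340 bp for *Pfkm*. Without division by length, the mean of *Pfkp* went from 3209 normalized counts in controls to 7977 in *MxCDX2* mice. That of *Pfkl* went from 3374 to 4350 and that of *Pfkm* from 2041 to 946. Without the wild-type control the log2 fold change of *Pfkm* was -0.98, short of the fold threshold. Of 5 megakaryocyte markers, which stand for the platelet lineage, 0 rose and 2 fell, *Gp9* and *Gp1ba*. Without the wild-type control 3 fell, and the log2 fold changes were -1.92 in place of -3.73 for *Gp9* and -1.80 in place of -3.58 for *Gp1ba*. Without any 1 of the *MxCDX2* mice 0 of the 5 passed. Their sum was 458 to 5704 CPM in controls, highest in the wild-type mouse, and 231 to 311 CPM in *MxCDX2* mice, with none at 0, and their part in the phosphofructokinase values was not tested.

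*Aldoa* (ENSMUSG00000030695, chr7:126795234-126800751, minus strand) encodes the aldolase that cleaves fructose 1,6-bisphosphate in muscle and blood cells. It had 25959, 27600 and 27154 normalized counts in controls and 30510, 28293 and 30913 in *MxCDX2* mice. The groups stood apart, but by less than the spread within the *MxCDX2* group, and the log2 fold change was 0.15 (SE 0.12, adjusted p = 0.396).

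*Bpgm* (ENSMUSG00000038871, chr6:34476207-34505613, plus strand) and *Pklr* fell most of the 10 genes, to a similar extent. *Bpgm* had 43095, 50485 and 37152 normalized counts in controls and 3881, 2006 and 2725 in *MxCDX2* mice. The groups were widely apart, and *MxCDX2* mouse 1 kept the most and *MxCDX2* mouse 2 the least. Its mean fell from 43577 ± 6679 to 2871 ± 946 (SD, n = 3), a log2 fold change of -3.92 (SE 0.29, adjusted p = 0.00123), which is 15.2-fold. In fits without 1 mouse, the log2 fold change was between -4.20 and -3.72 and the gene was called in 6 of 6.

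*Pgam1* (ENSMUSG00000011752, chr19:41911923-41918660, plus strand) encodes phosphoglycerate mutase, which moves the phosphate of 3-phosphoglycerate in the main route of glycolysis. It had 2303, 1886 and 1552 normalized counts in controls and 4472, 4069 and 5046 in *MxCDX2* mice. The lowest *MxCDX2* mouse was well above the highest control. The mean rose from 1913 ± 376 to 4529 ± 491 (SD, n = 3), a log2 fold change of 1.24 (SE 0.17, adjusted p = 0.00445), which is 2.37-fold. The gene was called in 6 of 6 fits with a mouse left out, with log2 fold changes of 1.13 to 1.41, but not with the null set at a log2 fold change of 1 (adjusted p = 0.281). Monocyte markers rose in the same mice, and their part in the *Pgam1* result was not tested. Of the stretches of 50 bases in its exons, 36.2% also occur in the processed pseudogene *Pgam1-ps2*, so reads there may not have been counted on *Pgam1*. That pseudogene had 11 to 17 counts in controls and 14 to 43 in *MxCDX2* mice, against 1702 to 5797 counts for *Pgam1*. *Pgam2*, the muscle form, also rose, from 198, 265 and 262 normalized counts in controls to 621, 655 and 717 in *MxCDX2* mice (log2 fold change 1.46, adjusted p = 0.00403). Of the skeletal muscle markers, 0 of the 4 tested passed both thresholds with edgeR, 2 had an unadjusted p below 0.05 and 2 rose with DESeq2. Their summed level was 0.906 to 4.57 CPM in controls and 3.25 to 17.4 CPM in *MxCDX2* mice, with log2 fold changes of 2.57 for *Ckm* (adjusted p = 0.0784) and 1.41 for *Acta1* (adjusted p = 0.256), and the myoglobin gene *Mb* was at 0 in 3 mice. Their part in the *Pgam2* result was not tested.

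*Pgam1* therefore took the place of *Bpgm* as the largest part of the pool of mutase transcripts. The log2 ratio of their counts per kb was 3.37, 3.89 and 3.73 in controls 1 to 3 and -1.06, -1.88 and -1.75 in *MxCDX2* mice. *Bpgm* exceeded *Pgam1* in all 3 controls and was below it in all 3 *MxCDX2* mice. The mean log2 ratio changed by -5.22 (exact permutation test, two-sided, p = 0.10, n = 3 per group). Of the counts per kb of *Bpgm*, *Pgam1* and *Pgam2*, *Bpgm* held 90.6% ± 1.09 in controls and 20.4% ± 5.36 in *MxCDX2* mice, and *Pgam1* 7.24% ± 1.28 and 59.0% ± 3.21 (SD, n = 3). *Pgam2* held 2.18% ± 0.492 in controls and 20.6% ± 2.44 in *MxCDX2* mice (SD, n = 3), close to *Bpgm* there. The summed level of the 3 genes was 13398 ± 1944 normalized counts per kb in controls and 3876 ± 421 in *MxCDX2* mice (SD, n = 3).

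*Pklr* (ENSMUSG00000041237, chr3:89136142-89146784, plus strand) encodes the pyruvate kinase of red cells and liver, the last step to pyruvate. It had 1732, 1766 and 1812 normalized counts in controls, the narrowest spread relative to its mean among the 10 genes in this group, and 237, 51.9 and 63.5 in *MxCDX2* mice. *MxCDX2* mouse 1 had several times the value of the other *MxCDX2* mice and was still far below every control. The mean fell from 1770 ± 40.2 to 118 ± 104 (SD, n = 3), a log2 fold change of -3.92 (SE 0.61, adjusted p = 0.00692), which is 15.1-fold. Without *MxCDX2* mouse 1 the log2 fold change was -4.93, and the gene was called in 6 of 6 fits with a mouse left out. Exons of *Hcn3* lie on the opposite strand over 711 bp of *Pklr*, and *Hcn3* had 18 to 60 counts per mouse.

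*Pkm* (ENSMUSG00000032294, chr9:59656368-59679375, plus strand) encodes the pyruvate kinase of most other cells, and its M1 and M2 splice forms were counted together. It had 52497, 59867 and 55841 normalized counts in controls and 72755, 62935 and 73843 in *MxCDX2* mice. The groups did not overlap, though *MxCDX2* mouse 2 stood near the *Mx1Cre* control. The log2 fold change was 0.32 (SE 0.15, adjusted p = 0.193). Other loci share 25.8% of the 50-base stretches in its exons. *Pklr* held 4.85%, 4.36% and 4.77% of the pyruvate kinase counts per kb in controls and 0.502%, 0.127% and 0.133% in *MxCDX2* mice. No *MxCDX2* mouse came near a control in this share, which differed by -4.41 percentage points (exact permutation test, two-sided, p = 0.10, n = 3 per group). The summed level was 11758 ± 743 normalized counts per kb in controls and 14002 ± 1217 in *MxCDX2* mice (SD, n = 3).

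**Figure D2:**
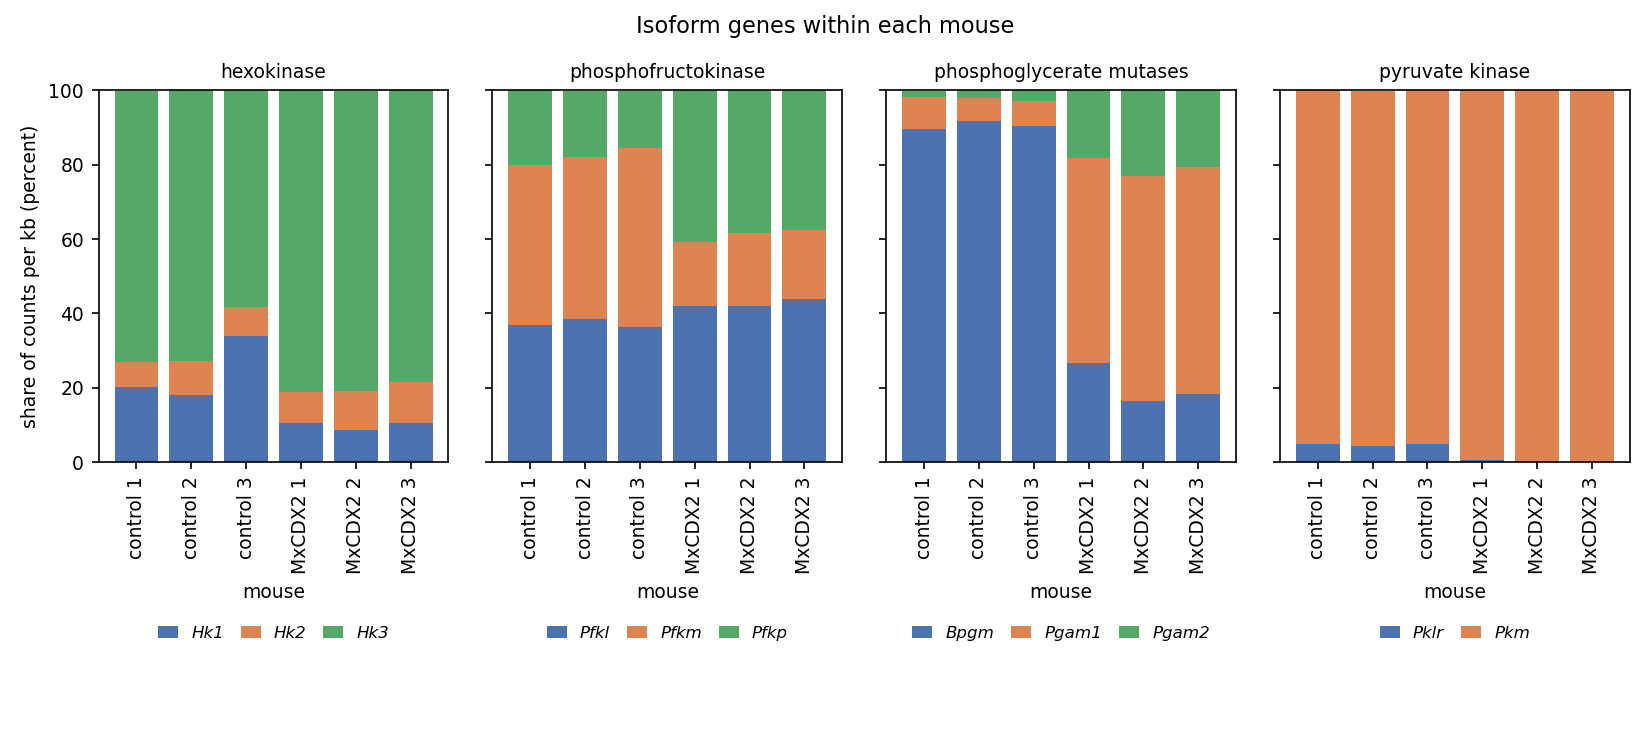
Share of each gene in the counts per kb of its enzyme family (percent, stacked to 100) in each mouse, for the hexokinases, phosphofructokinases, phosphoglycerate mutases and pyruvate kinases. *Bpgm* holds 89.6% to 91.7% of the mutase bar in controls and 16.5% to 26.5% in *MxCDX2* mice, while *Pkm* fills over 95% of the pyruvate kinase bar in every mouse.

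The promoters of the 3 called genes are shown to set the start sites beside the counts. *Pklr* has 2 start sites, 481 bp apart, which are known to serve red cells (upstream) and liver (downstream), and gene-level counts do not separate them. The 250 bases before each start site, from RefSeq (GRCm38.p6, plus strand), read 5′ to 3′ as follows, with matches to the motifs named below in capitals. The windows are chr3:89135892-89136141 and chr3:89136373-89136622 for *Pklr*, chr6:34476106-34476355 for *Bpgm* and chr19:41911621-41911870 for *Pgam1*.
*Pklr* upstream: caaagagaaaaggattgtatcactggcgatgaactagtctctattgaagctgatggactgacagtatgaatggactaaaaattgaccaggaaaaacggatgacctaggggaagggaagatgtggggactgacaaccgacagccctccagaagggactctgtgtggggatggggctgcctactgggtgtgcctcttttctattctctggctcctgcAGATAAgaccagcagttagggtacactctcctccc
*Pklr* downstream: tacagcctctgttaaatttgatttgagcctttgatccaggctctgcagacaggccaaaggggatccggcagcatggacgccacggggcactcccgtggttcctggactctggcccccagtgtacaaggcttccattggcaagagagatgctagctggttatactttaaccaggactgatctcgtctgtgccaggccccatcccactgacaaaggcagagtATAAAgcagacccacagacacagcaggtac
*Bpgm*: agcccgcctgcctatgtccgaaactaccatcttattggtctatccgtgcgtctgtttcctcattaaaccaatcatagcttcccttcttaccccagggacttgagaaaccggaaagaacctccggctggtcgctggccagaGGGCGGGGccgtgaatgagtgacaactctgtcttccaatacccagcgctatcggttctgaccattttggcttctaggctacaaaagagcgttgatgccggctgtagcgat
*Pgam1*: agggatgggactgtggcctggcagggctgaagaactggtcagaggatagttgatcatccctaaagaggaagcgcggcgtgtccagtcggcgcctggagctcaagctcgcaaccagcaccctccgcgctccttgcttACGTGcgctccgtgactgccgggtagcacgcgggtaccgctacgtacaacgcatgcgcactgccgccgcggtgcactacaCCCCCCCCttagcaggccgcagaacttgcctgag

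Motifs were searched on both strands in windows from 250 bases before to 50 bases after each start site, 15 windows for the 10 genes and 32817 for all genes. AGATAA, the letters that GATA factors such as the erythroid factor GATA1 are known to prefer, was found in the upstream *Pklr* window at positions -35 to -30 and in no other of the 15, and 11.2% of all windows hold it. CCNCNCCC, a CACCC-box pattern bound by Krüppel-like factors, was found in 11 of the 15 windows, against 49.5% of all. It lies at -110 to -103 in the *Bpgm* window, on the opposite strand, and at -34 to -27 in the *Pgam1* window, and neither *Pklr* window holds it. ACGTG, the core of the hypoxia response element, was found in 8 of the 15 windows, against 19.6% of all, and lies at -114 to -110 in the *Pgam1* window. It overlaps with CACGTG, the E-box of MYC and related factors, which was found in 0 of the 15 and in 7.15% of all. TTTAT, the core of CDX sites, was found in 3 of the 15 windows, against 40% of all, and lies on the opposite strand at -30 to -26 in the downstream *Pklr* window. On the printed strand this match and the base before it read TATAAA, which are also the letters of a TATA box. Some *Aldoa* windows overlap and hold the same ACGTG and CCNCNCCC matches, so the 15 windows are not independent. The shares over all windows were not matched for the content of G and C, which was 49% to 67.3% in the 15 windows. These matches describe letters in a window and not the binding of a factor.

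The level that was left in each *MxCDX2* mouse, as a percentage of the control mean, was set beside the 18 erythroid markers. *Bpgm* kept 8.91%, 4.60% and 6.25% in *MxCDX2* mice 1 to 3, *Pklr* 13.4%, 2.93% and 3.59%, and *Slc2a4* 16.4%, 4.96% and 6.25%. The median of the erythroid markers was 17.7%, 3.06% and 6.09% in the same mice. All 18 markers were highest in *MxCDX2* mouse 1 and 17 were lowest in *MxCDX2* mouse 2. *Bpgm*, *Pklr*, *Slc2a4* and *Hk1* had the same order of mice. *Hk1* kept 64.2%, 58.6% and 62.3%, above the range of the erythroid markers in each mouse, the highest of which had 31.7%. *Hk1* also has 2 start sites, 39487 bp apart. Gene-level counts do not separate them, so the level of transcripts from either site is not known. The part of the erythroid cells in these results was not tested.

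**Figure D3:**
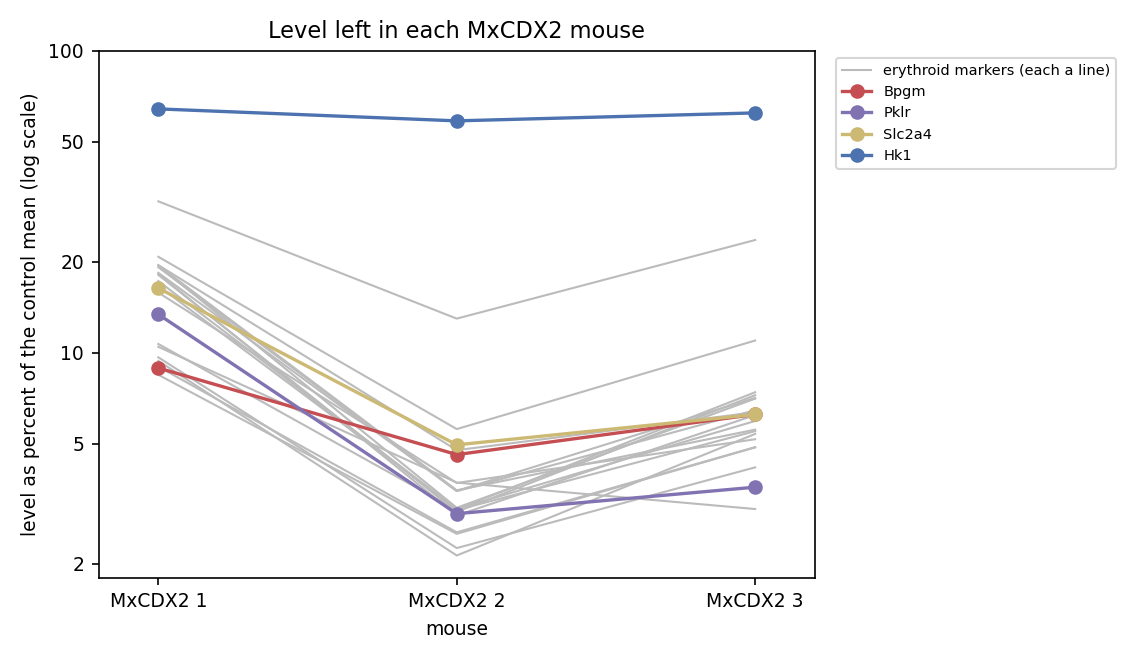
Level in each *MxCDX2* mouse as a percentage of the control mean (log axis) for *Bpgm*, *Pklr*, *Slc2a4* and *Hk1* (coloured) and for each of the 18 erythroid markers (grey lines). *Bpgm*, *Pklr* and *Slc2a4* run among the erythroid markers in all 3 mice, from 2.93% to 16.4%, and *Hk1* stays at 58.6% to 64.2%.

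The genes whose profile over the 6 mice was most like that of *Bpgm*, by the root mean square difference of their centred log2 values among 11981 genes, were *Bex4* (0.22), the theta-globin gene *Hbq1b* (0.26) and *Alas2* (0.27), which encodes the erythroid form of the first heme enzyme. For *Pgam1* they were *Erlin1* (0.08), which encodes a protein of the endoplasmic reticulum, *Ahcyl2* (0.08) and the kinesin gene *Kif1b* (0.09). The likeness is a description over the same 6 libraries, in which both groups are included.

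Beyond these genes, 16 other genes of glycolysis were listed by pathway membership, and 14 were tested. By both thresholds 3 rose, *Pfkp*, *Pgam2* and *Ldhb*, and 2 fell, among them *Pfkm*, with a median log2 fold change of 0.15. *Ldhb*, which encodes the lactate dehydrogenase subunit of heart, had 769, 628 and 488 normalized counts in controls and 2752, 2393 and 2720 in *MxCDX2* mice. Every *MxCDX2* value was more than 3 times the highest control, and the log2 fold change was 2.06 (adjusted p = 0.00174). Of the abundant genes that were not called, *Ldha*, which encodes the other subunit, had a log2 fold change of -0.25 (adjusted p = 0.292) and *Gapdh* of 0.63 (adjusted p = 0.160). When the null was itself set at a log2 fold change of 1, 1 of the 14 genes passed, *Ldhb*.

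**Figure D4:**
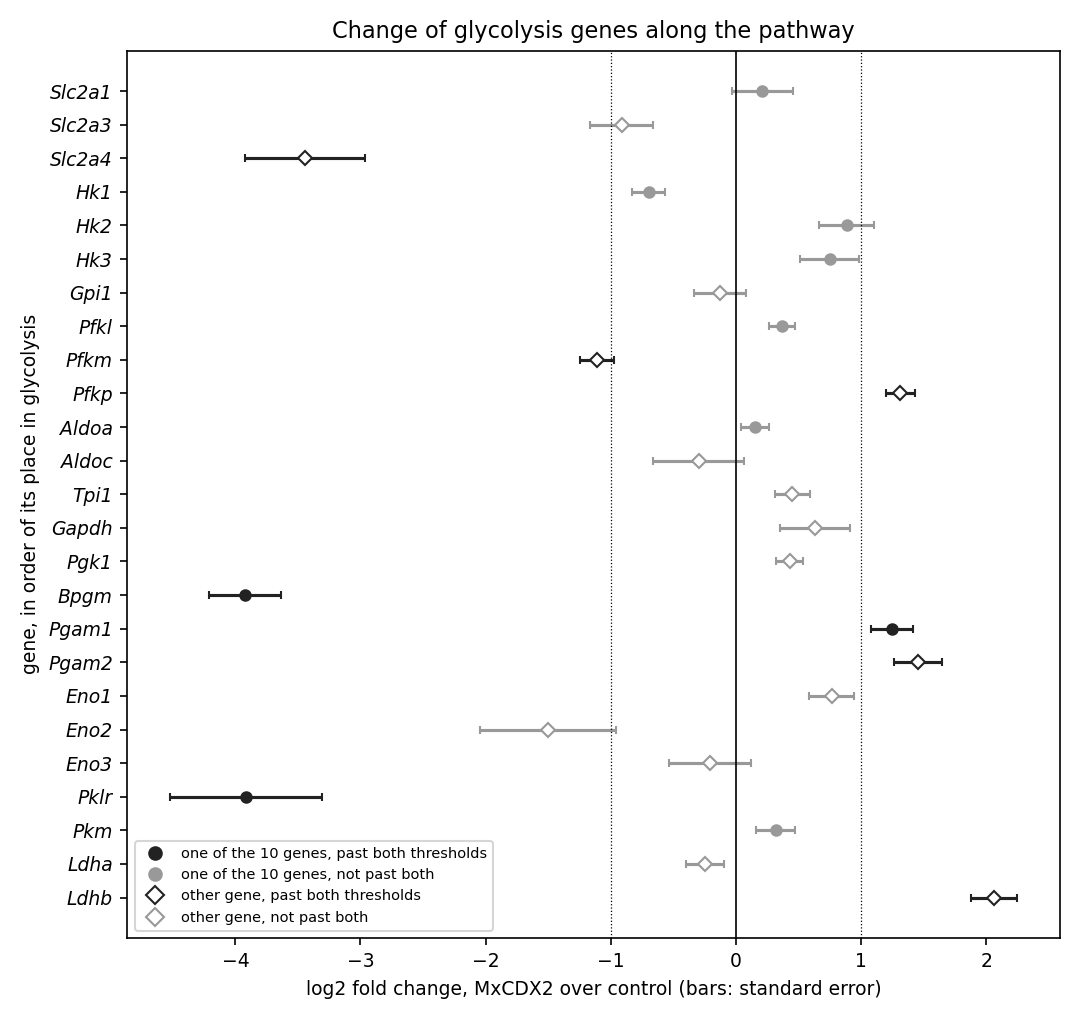
Log2 fold change of *MxCDX2* over control mice, with its standard error, for the 10 genes (filled circles) and other glycolysis and glucose transporter genes (open diamonds) in pathway order. Black symbols passed both thresholds and grey ones did not, and dotted lines mark a log2 fold change of 1 in each direction. *Bpgm*, *Pklr* and *Slc2a4* lie beyond -3, and *Ldhb* lies highest at 2.06.

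Of 8 other genes of glucose and lactate transport, all of them tested, 0 rose and 4 fell. Besides *Slc2a4* these were *Slc16a1* (log2 fold change -1.58, adjusted p = 0.00662) and *Slc16a3* (-1.29, adjusted p = 0.0161), which encode carriers of lactate, and *Slc16a10* (-1.57, adjusted p = 0.00939), a family member that carries aromatic amino acids. *Slc16a3* lost the call without *MxCDX2* mouse 2 (adjusted p = 0.0648) or *MxCDX2* mouse 3 (adjusted p = 0.0724). *Bsg*, which encodes the chaperone of these carriers, had a log2 fold change of -0.88 (adjusted p = 0.00917), and *Slc2a6*, which encodes another member of the glucose transporter family, of 0.88 (adjusted p = 0.0128), both short of the fold threshold.

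Of 12 genes that regulate glycolysis, 11 were tested, 2 rose and 0 fell. *Egln3*, an oxygen sensor and target of hypoxia-inducible factors, had a log2 fold change of 1.19 (adjusted p = 0.00623). *Tigar*, a phosphatase that lowers glycolytic flux, had a log2 fold change of 1.03 (adjusted p = 0.0363) and lost the call in 4 of the 6 fits with a mouse left out, those without *MxCDX2* mouse 1 or 3 or without control 2 or 3 (adjusted p from 0.0525 to 0.119). Of those not called, *Txnip*, which restrains glucose uptake, had a log2 fold change of 0.03 and *Pfkfb4*, which makes or removes an activator of phosphofructokinase, of -0.86 (adjusted p = 0.0230). Of 8 genes of the pentose phosphate pathway 0 were called with edgeR and 0 with DESeq2, and 1 had an unadjusted p below 0.05. This was *Pgls*, with a log2 fold change of -0.42 (adjusted p = 0.0382, and 0.0510 to 0.122 with a mouse left out). *Taldo1* had a log2 fold change of -0.16 and *Tkt* of -0.33. Of 13 genes through which pyruvate enters mitochondria and the citrate cycle 0 were called with edgeR and 0 with DESeq2, and 3 had an unadjusted p below 0.05, with log2 fold changes of 0.19 for *Pdha1* and -0.09 for *Dld*. *Mpc2*, which encodes a subunit of the mitochondrial pyruvate carrier, had a log2 fold change of -0.76 (adjusted p = 0.00417) and *Pdp2*, which encodes a phosphatase that activates pyruvate dehydrogenase, of 0.92 (adjusted p = 0.0242), both short of the fold threshold.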

How the data were processed

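Total RNA from bone marrow was made into stranded mRNA libraries. According to the methods and the submitters' processing notes, the authors used STAR (version 2.5) to align reads to GRCm38 and HTSeq (version 0.6.1) to assign them to genes, and deposited the raw counts of each mouse. The strand setting of the counting is not given in the sources used here. Members and gene lists were chosen with earlier results of these data known.

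Symbols, positions and exon lengths came from GENCODE M21, which named 37607 of 39179 identifiers. Genes passing edgeR's default filterByExpr rule were tested in R 4.3.3 with edgeR 4.0.16 (TMM, glmQLFit, glmQLFTest), with Benjamini-Hochberg adjustment over 15980 genes. DESeq2 1.42.0 was an alternative. Shares within a family were compared by exact permutation tests over mice. The p-values weigh the difference between the 2 groups against the spread between mice, and they cover these 6 mice only. With 1 mouse per control genotype, genotype and animal cannot be told apart in the spread of the controls. On simulated counts over 15735 genes, edgeR found 170 of 200 genes changed by a log2 fold of 2, with 12 false calls. DESeq2 found 191 of the 200 with 65 false calls. With no gene changed, DESeq2 made 40 false calls and edgeR 1. Besides the 10 genes and *Cdx2*, the text names up to 4 called genes and 2 abundant uncalled genes per metabolic list, the first 3 erythroid, monocyte, neutrophil and muscle markers, and the 3 genes most like *Bpgm* and *Pgam1* whose mean normalized count reached 100. *Slc2a6*, *Pgls*, *Mpc2*, *Pdp2*, *Gp9* and *Gp1ba* were named after their values were seen. Some genes of these lists are not reported here by name.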

Additional observations from a re-analysis of the deposited data

How the results depend on the processing

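With another tool, normalization or low-count filter, or with each mouse left out, the log2 fold changes of the 10 genes kept their direction in all 120 values, and the call by both thresholds together was the same in 117. The other 3 were *Hk2*, called with total counts only (log2 fold change 1.01), without *MxCDX2* mouse 1 and without control 2. With total counts only, the median of all genes shifted by 0.12 on the log2 scale and the share of higher genes among those called was 41.5%, against 33.7%, and *Pfkm* lost its call at -0.997. At an adjusted p below 0.05 and any fold, *Hk1* passed in 10 of its 12 alternatives, *Hk2* in 8, *Pfkl* in 6 and *Hk3* in 3. The count of called genes among the 10 was 3 or 4 when a mouse was left out, and 2 with the null set at a log2 fold change of 1 (glmTreat), where *Pgam1* lost its call (adjusted p = 0.281). Of the 14 other glycolysis genes, 1 was called in that test, against 5, and 4 or 5 with a mouse left out.

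Over all genes tested, 2177 were called, 1043 at an adjusted p below 0.01 and 611 with the null set at a log2 fold change of 1. The count was 1205 to 2406 with a mouse left out, lowest without *MxCDX2* mouse 3. With a mouse left out, the *Hk1* share differed by -17.2 to -9.31 points, the *Hk3* share by 7.17 to 14.5, the *Pklr* share by -4.56 to -4.31 and the *Bpgm* to *Pgam1* log2 ratio by -5.47 to -5.06. No paired analysis was possible because the labels of the control mice give no mouse numbers that could pair them with *MxCDX2* mice.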
